A study of Jaculus jaculus with 29 samples.

Results

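Heat shock chaperone genes were followed through water restriction and rehydration in the supraoptic nucleus of the jerboa Jaculus jaculus, a desert rodent. The list held 10 symbols: Hsf1, Hspa8, Dnajb1, Dnaja1, Hsph1, Hsp90aa1, Hsp90ab1, Hspb1, Hspd1 and Hspe1. Of these 10, 7 matched a symbol that the authors' deposited table for Dehydrated against Control gives to a gene of the 29170 in the count table, and these 7 make up the group counted throughout. All 7 passed the filter on low counts, among 17558 genes tested. Hspb1 and Hspd1 carried no symbol in that table and were placed by the overlap of their genes with RefSeq genes of the same symbol, so their values stand beside the 7 but are not counted with them. Hspe1 could not be placed on a single gene, because its RefSeq span holds 2 genes of the count table on the same strand. The listed name, cytosolic chaperones, does not cover every gene: Hsf1 encodes a transcription factor, and Hspd1 and Hspe1 encode the subunits of the mitochondrial chaperonin.

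Chaperones bind unfolded or incomplete proteins and help them to fold. Hsp70 proteins such as Hspa8 take up a client with the help of J-domain proteins, among them Dnajb1 and Dnaja1, which bring the client and switch on the Hsp70 ATPase. Hsp110, the product of Hsph1, exchanges the nucleotide on Hsp70 so that the client is let go, and the Hsp90 proteins then act late in the folding of kinases and steroid receptors. Hsf1 is the transcription factor that switches on many of these genes when unfolded proteins pile up, and Dnajb1 is one of its strongly heat-inducible targets in mammals. The supraoptic nucleus holds the magnocellular neurons that make vasopressin and oxytocin, and the load on their protein synthesis grows when an animal lacks water.

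RNA-seq counts came from 29 libraries, each taken as 1 animal because the labels number the samples within a group and describe singly housed animals. The 10 Dehydrated animals had gone without water for 11 days, the 9 Rehydrated animals had gone without water for 7 days and then drunk freely for 3 days, and the 10 Control animals drank freely. Rehydrated animals were thus restricted for a shorter time than Dehydrated ones. All groups had dry pellets, single cages, 25 °C and 12 hours of light, and polyadenylated RNA came from 12 punches with a 1 mm core through 100 µm frozen sections. Ages are not given in the sources used here. Each library name carries the letter M or F and a number, written here as Control M04 or Control F03. Sample titles spell the letter out as Male or Female, so the letter and the sex label are separate statements of sex. Which of them is right was not tested. The letter and the sex label differ in 3 libraries: Dehydrated M02 and Control M05 are labelled female, and Control F03 is labelled male. The genes were therefore examined over all libraries and also apart for M-named libraries (5 Dehydrated, 5 Rehydrated and 5 Control) and F-named libraries (5 Dehydrated, 4 Rehydrated and 5 Control).

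Libraries held 10797577 to 18856620 fragments assigned to genes. Control M01 had the fewest and stood apart on the first principal component of log2 expression, at 136.91 against -13.74 to 7.76 for the others. Main results that rest on M-named Control libraries are therefore also given without it. Avp, the vasopressin precursor that marks magnocellular neurons, was higher in Dehydrated than in Control libraries by 1.81 on the log2 scale (adjusted p = 0.0388, edgeR's quasi-likelihood test, Benjamini-Hochberg adjustment over all genes tested). In tissue punches, fewer cells of a type and less RNA per cell cannot be told apart.

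The genes lie on several chromosomes of the assembly mJacJac1.mat.Y.cur. Dnajb1 (ENSJJAG00000002024) lies on chromosome 21 at 12222244 to 12225614, Hspa8 on chromosome 3 at 91065717 to 91070092, and Dnaja1 on chromosome 1 at 102003648 to 102017729. Hsph1 lies on chromosome 7 at 13226488 to 13250172 and Hsp90aa1 on the same chromosome at 147895329 to 147901672. Hsp90ab1 lies on chromosome 8 at 12842909 to 12847598 and Hsf1 on chromosome 2 at 213578386 to 213598360. Fragments were counted with no strand option, so reads of overlapping genes on opposite strands cannot be told apart. Hsp90ab1 shares 271 bases of its span with Slc35b2 on the other strand, and Hspb1 shares 1025 bases with a gene that has no name in either source.

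Per kilobase of exon, the constitutive Hsp70 and the Hsp90 genes stood far above the J-domain genes, and Hsf1 was low. Levels are in CPM, a gene's counts as a share of the library's TMM-scaled total (TMM is edgeR's scaling between libraries), here divided by the exonic length in kilobases and averaged over the 29 libraries. Hspa8 stood at 1077, Hsp90ab1 at 790.8 and Hsp90aa1 at 521.2 CPM per kilobase. Hsph1 came next at 130.8, followed by Dnaja1 at 86.6 and Dnajb1 at 44.7 CPM per kilobase. Hsf1 stood at 25.09, Hspd1 at 12.48 and Hspb1 at 7.139 CPM per kilobase. Neighbours in this order overlapped in their ranges over libraries, except Hsp90aa1 above Hsph1 and Hsf1 above Hspd1. Within a library, Hspa8 was above Hsp90ab1 and Hsp90ab1 above Hsp90aa1 in 29 of 29 libraries, while Dnajb1 was above Hsf1 in 27.

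With all libraries of a group together, none of the 7 genes passed the test after dehydration. Dnajb1 had the largest difference of the 7: it ranged from 55.1 to 83.1 CPM with a median of 74.9 in Dehydrated libraries, and from 62.9 to 361.1 CPM with a median of 110.7 in Control libraries. The Dehydrated values sit in the lower part of the wide Control range or below it, and the groups overlapped. Its log2 difference was -0.92 (SE 0.24), and its adjusted p was 0.243 by edgeR's quasi-likelihood test. The authors' deposited table gives Dnajb1 a log2 fold change of -0.91 with a standard error of 0.26 and an adjusted p of 0.109 for Dehydrated against Control, from tables with no column for Control M01, and lists none of the 9 placed genes under 0.05. Of the 7 genes, 6 were lower and 1 higher in Dehydrated libraries, with a median log2 difference of -0.10 against -0.003 over all genes tested, and 0 were called by edgeR or by DESeq2, beside 0.125% of all genes. At an unadjusted p under 0.05, 1 of the 7 (Dnajb1) passed, beside 1118 of the 17558 genes tested.

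The others had smaller differences between these groups. Hspa8, the constitutive Hsp70, ranged from 2232 to 2942 CPM with a median of 2703 in Dehydrated libraries and from 2341 to 3832 CPM with a median of 2780 in Control libraries, a log2 difference of -0.08 (SE 0.08). Hsph1 ranged from 286.9 to 552.0 CPM in Dehydrated and from 359.2 to 736.0 CPM in Control libraries, with a log2 difference of -0.20 (SE 0.12). Dnaja1 differed by -0.20 (SE 0.11). Among the Hsp90 genes, Hsp90aa1 differed by -0.10 (SE 0.08) and Hsp90ab1 by -0.05 (SE 0.07). Hsf1 ranged from 51.6 to 66.0 CPM in Dehydrated and from 50.3 to 74.2 CPM in Control libraries, and was the single one with a positive log2 difference, 0.05 (SE 0.07). Every one of these ranges overlapped between the groups. Hspb1 and Hspd1, placed by RefSeq, differed by -0.20 (SE 0.23) and -0.14 (SE 0.10).

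In Rehydrated libraries, too, none of the 7 genes passed the test against Control. Dnajb1 ranged from 64.0 to 124.2 CPM with a median of 75.0 in Rehydrated libraries, against a median of 110.7 CPM in Control libraries. The log2 difference was -0.77 (SE 0.24, adjusted p = 0.535), and 8 of 9 Rehydrated libraries lay below the Control median. The count called was 0 by edgeR and by DESeq2 (0.0% of all genes by edgeR). Of the 7, 1 had an unadjusted p under 0.05, beside 1313 of the 17558 genes tested. Their median log2 difference was 0.02 against 0.003 over all genes tested. Against Dehydrated libraries, all 7 had positive log2 differences in Rehydrated ones, from 0.01 for Hsf1 to 0.15 for Dnaja1, with a median of 0.13 against 0.004 over all genes tested; none was called, beside 0.0228% of all genes, and none had an unadjusted p under 0.05. Each comparison with Control shares the same 10 Control libraries.

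The wide Control range of Dnajb1 separated by the letter in the library name. In M-named Control libraries Dnajb1 stood at 172.2 (M01), 136.8 (M03), 361.1 (M04), 225.0 (M05) and 213.7 CPM (M06). In F-named Control libraries it stood at 71.6 (F01), 62.9 (F02), 84.6 (F03), 73.4 (F05) and 64.2 CPM (F06). The lowest M-named value was above the highest F-named one, and these 5 M-named Control libraries held the 5 highest Dnajb1 values of all 29 libraries. The Control libraries whose letter and label differ went with the letter: Control M05, labelled female, was the second highest. Control F03, labelled male, lay below every M-named one. At 84.6 CPM it was the highest of the F-named ones, the next of which stood at 73.4 CPM. The log2 difference between M-named and F-named Control libraries was 1.64 (SE 0.19), a 3.11-fold higher level (adjusted p = 2.85e-05, edgeR's quasi-likelihood test). Without Control M01 it was 1.72 (adjusted p = 4.37e-05).

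**Figure D1:**
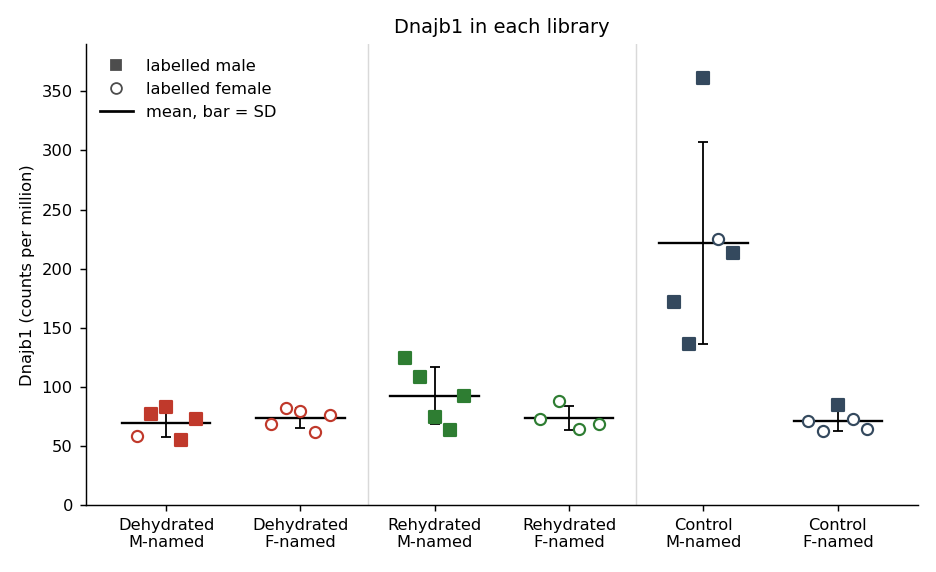
Dnajb1 in CPM (vertical axis) for each of the 29 libraries, by treatment and by the letter in the library name; squares are labelled male, open circles labelled female, the horizontal line is the mean and the bar the SD. The 5 M-named Control libraries, from 136.8 to 361.1 CPM, stand above every other library, the highest of which is at 124.2 CPM.

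No such separation was present in the other treatments. Dnajb1 stood at 73.1 (M09), 58.9 (M02), 77.3 (M05), 83.1 (M06) and 55.1 CPM (M08) in M-named Dehydrated libraries, and at 68.7 (F03), 81.9 (F04), 80.1 (F05), 62.4 (F06) and 76.8 CPM (F07) in F-named ones. These ranges overlapped, with a log2 difference of -0.09 (SE 0.19). In Rehydrated libraries it stood at 124.2 (M01), 75.0 (M05), 64.0 (M06), 92.7 (M08) and 108.3 CPM (M04) in M-named libraries and at 73.2 (F03), 88.2 (F04), 64.9 (F05) and 69.0 CPM (F06) in F-named ones. Of the M-named values, 3 lay above every F-named one while the rest overlapped, and the log2 difference was 0.33 (SE 0.20). None of the 7 genes was called between the letters in Dehydrated or in Rehydrated libraries, as was none of the genes tested (0.0%) by edgeR; none of the 7 had an unadjusted p under 0.05 in either.

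Within the letters, Dnajb1 was lower in Dehydrated than in Control libraries among the M-named ones and differed little among the F-named ones. M-named Control libraries are numbered 1 to 5 in their headers and M-named Dehydrated ones 6 to 10. Treatment cannot be told apart from that numbering. Among M-named libraries Dnajb1 averaged 69.5 ± 12.0 CPM in Dehydrated and 221.8 ± 85.4 CPM in Control libraries (SD, n = 5 each), a log2 difference of -1.67 (SE 0.19), or 3.19-fold lower (adjusted p = 3.57e-05, edgeR's quasi-likelihood test). Among F-named libraries it averaged 74.0 ± 8.20 CPM in Dehydrated and 71.3 ± 8.69 CPM in Control libraries (SD, n = 5 each), a log2 difference of 0.05 (SE 0.19, adjusted p = 1.0). The test of the difference itself, M-named minus F-named, gave -1.73 (SE 0.27, adjusted p = 0.0041). It uses the same M-named Control libraries as the letter difference in Control, so it adds no independent support to that difference. Of the 7 genes, 1 (Dnajb1) was called in that test, beside 0.0513% of all genes, and without Control M01 Hsph1 was called as well (adjusted p = 0.0328). Leaving out any 1 of the 29 libraries kept the call, with differences from -1.86 to -1.48. Without Control M01 the difference was -1.81 (adjusted p = 0.00418). When groups were formed by the sex label in place of the letter, the difference was -0.95 with an adjusted p of 0.817.

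Dnajb1 was also lower in M-named Rehydrated than in M-named Control libraries. These are the same 5 Control libraries as before, so this adds no independent support to the comparisons above. Treatment cannot be told apart from the header numbering here either. Dnajb1 averaged 92.9 ± 24.4 CPM in M-named Rehydrated libraries against 221.8 ± 85.4 CPM in M-named Control libraries. The log2 difference was -1.26 (SE 0.19, adjusted p = 0.00659, edgeR's quasi-likelihood test, n = 5 each). It was the single gene called in that comparison among all genes tested, 0.0057% of them, and without Control M01 the difference was -1.33 (adjusted p = 0.00646). With 1 library left out, 1 to 15 of all genes were called, the most without Control M03. Dnajb1 kept its call in 29 of 29 such fits. In F-named libraries it averaged 73.8 ± 10.1 CPM in Rehydrated libraries (n = 4) and 71.3 ± 8.69 CPM in Control libraries (n = 5), a log2 difference of 0.05 (SE 0.20). None of the 7 was called there (0.0% of all genes) by edgeR or by DESeq2. All 7 had positive differences there, with a median of 0.18 against 0.0006 over all genes tested. Of the 7, 2 had an unadjusted p under 0.05, beside 1471 of the 17558 genes tested. These were Dnaja1 and Hsp90aa1, higher in F-named Rehydrated libraries by 0.31 and 0.24. The difference between the letters in this response, -1.31 (SE 0.27), had an adjusted p of 0.0948, which was 0.0561 without Control M01, and without Control M03 it passed (adjusted p = 0.0333). It also passed by DESeq2, at -1.31 (adjusted p = 0.00565).

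Dnaja1 and Hsph1 were also higher in M-named Control libraries, by smaller amounts than Dnajb1. Dnaja1, the other J-domain gene of the list, stood at 303.5 (M01), 215.5 (M03), 270.6 (M04), 283.3 (M05) and 263.0 CPM (M06) in M-named Control libraries, and at 203.1 (F01), 165.6 (F02), 168.5 (F03), 150.6 (F05) and 174.0 CPM (F06) in F-named ones. The letters did not overlap, and the log2 difference was 0.63 (SE 0.11, adjusted p = 0.00222, edgeR's quasi-likelihood test). Hsph1, the Hsp110 gene, stood at 496.3 (M01), 521.1 (M03), 736.0 (M04), 623.4 (M05) and 631.0 CPM (M06) in M-named Control libraries, and at 378.7 (F01), 409.8 (F02), 403.2 (F03), 359.2 (F05) and 440.9 CPM (F06) in F-named ones. Again the letters did not overlap. Its log2 difference was 0.59 (SE 0.12, adjusted p = 0.0204). Without Control M01, Dnaja1 differed by 0.58 (adjusted p = 0.00471) and Hsph1 by 0.66 (adjusted p = 0.00864).

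The abundant Hsp70 and Hsp90 genes differed by less. Hsp90aa1, the heat-inducible Hsp90, ranged from 1576 to 2161 CPM with a median of 2044 in M-named Control libraries and from 1367 to 1567 CPM with a median of 1431 in F-named ones. Its log2 difference was 0.40 (SE 0.09, adjusted p = 0.0322), and it missed the threshold without Control M01 (adjusted p = 0.0719). Hspa8 ranged from 2804 to 3832 CPM in M-named and from 2341 to 2757 CPM in F-named Control libraries. These ranges did not overlap, but the log2 difference of 0.37 (SE 0.09) did not pass (adjusted p = 0.0584, and 0.121 without Control M01). Hsp90ab1, the constitutive Hsp90, ranged from 1825 to 2317 CPM in M-named and from 1569 to 1924 CPM in F-named Control libraries, with an overlap and a log2 difference of 0.29 (adjusted p = 0.0802). Hsf1 itself ranged from 50.3 to 74.2 CPM in M-named and from 53.3 to 63.5 CPM in F-named Control libraries, a log2 difference of 0.02 (SE 0.11) and a 95% interval of -0.18 to 0.23.

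Between the letters in Control libraries, 4 of the 7 genes were thus called higher and all 7 had positive differences, beside 0.439% of all genes called higher. The ranges of 5 of the 7 did not overlap, beside 1.32% of all genes that were higher without overlap. The median log2 difference of the 7 was 0.40 against -0.01 over all genes tested. Of the RefSeq-placed genes, Hspd1 differed by 0.47 (SE 0.11, adjusted p = 0.0496) and had overlapping ranges. Hspb1, at 5.75 to 11.8 CPM in M-named and 3.77 to 7.46 CPM in F-named libraries, differed by 0.57 (SE 0.32, adjusted p = 0.359). The calls of Hsph1, Hsp90aa1 and Hspd1 rest on single libraries: Hsph1 was not called without Control M04, F02 or F05, Hsp90aa1 was not called without any 1 of 6 Control libraries, and the call of Hspd1 held in 5 of 29 fits that left out 1 library.

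**Figure D2:**
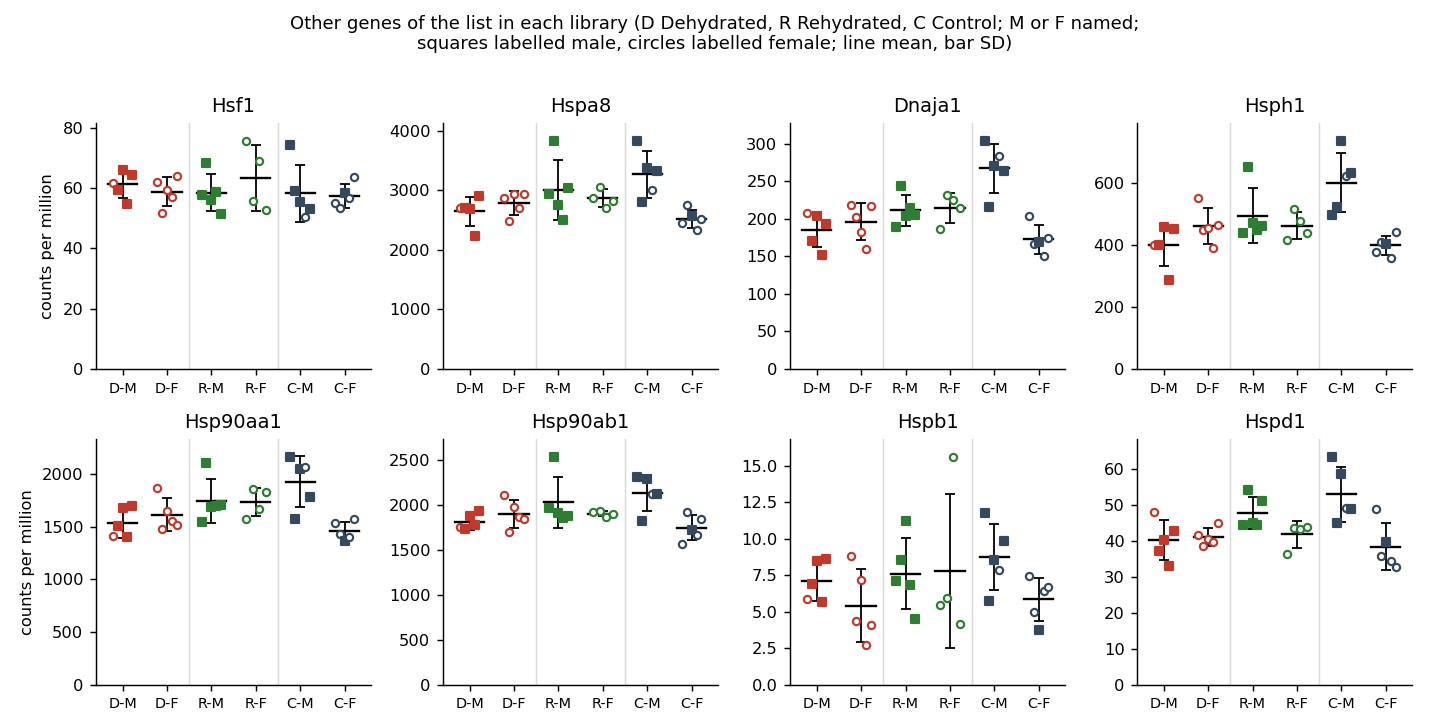
CPM (vertical axes, from 0) of the other 8 placed genes in each library, by treatment and name letter, with the mean as a line and the SD as a bar. Dnaja1, Hsph1, Hspa8 and Hsp90aa1 have M-named Control libraries above every F-named Control library, though not above every library of the other treatments, whereas Hsf1 lies at 50.3 to 75.6 CPM.

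Among M-named libraries, the same J-domain and Hsp110 genes were lower in Dehydrated than in Control ones. Dnaja1 averaged 185.2 ± 23.4 CPM in M-named Dehydrated libraries, against 267.2 ± 32.7 CPM in M-named Control libraries (SD, n = 5 each). Its log2 difference was -0.53 (SE 0.11, adjusted p = 0.0194, edgeR's quasi-likelihood test). Hsph1 averaged 399.7 ± 68.8 CPM in M-named Dehydrated libraries, against 601.6 ± 96.1 CPM in M-named Control libraries. Its log2 difference was -0.59 (SE 0.12, adjusted p = 0.0343 by the same test). With Dnajb1 these were the 3 of 7 genes called, all lower, beside 0.211% of all genes called lower. The ranges of the same 3 did not overlap, beside 1.54% of all genes that were lower without overlap. Hsp90aa1 differed by -0.32, Hspa8 by -0.30 and Hsp90ab1 by -0.24, with adjusted p-values of 0.13, 0.173 and 0.209, and Hsf1 by 0.07 (SE 0.11). The call of Dnaja1 was lost without Control M04 or M05 or Dehydrated M05 or M08, and that of Hsph1 also without Control M06 or Dehydrated M02, while all 3 were called without Control M01, at -1.75 for Dnajb1 (adjusted p = 8.89e-05), -0.48 for Dnaja1 (adjusted p = 0.0498) and -0.65 for Hsph1 (adjusted p = 0.0124). The M-named Control libraries are shared by this comparison and by the one between the letters, so the second does not add independent support to the first.

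In the F-named libraries all 7 genes had small positive differences after dehydration, from 0.04 for Hsf1 to 0.21 for Hsph1. None passed the test by edgeR or by DESeq2, beside 0.0626% of all genes called by edgeR, and none had an unadjusted p under 0.05. Their median was 0.14 against -0.002 over all genes tested. Hspa8 averaged 2786 ± 196 CPM in Dehydrated and 2524 ± 155 CPM in Control F-named libraries, a difference of 0.14 (SE 0.09). Dnaja1 averaged 195.6 ± 24.7 CPM in Dehydrated and 172.4 ± 19.3 CPM in Control F-named libraries, a difference of 0.18 (SE 0.10). For Dnaja1 and Hsph1 the difference between the letters in the response was -0.71 (SE 0.15, adjusted p = 0.0729) and -0.80 (SE 0.18, adjusted p = 0.105), short of the threshold by edgeR and past it by DESeq2 (adjusted p = 0.00506 and 0.00984). By edgeR, Dnaja1 passed in 3 and Hsph1 in 2 of 29 fits that left out 1 library.

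**Figure D3:**
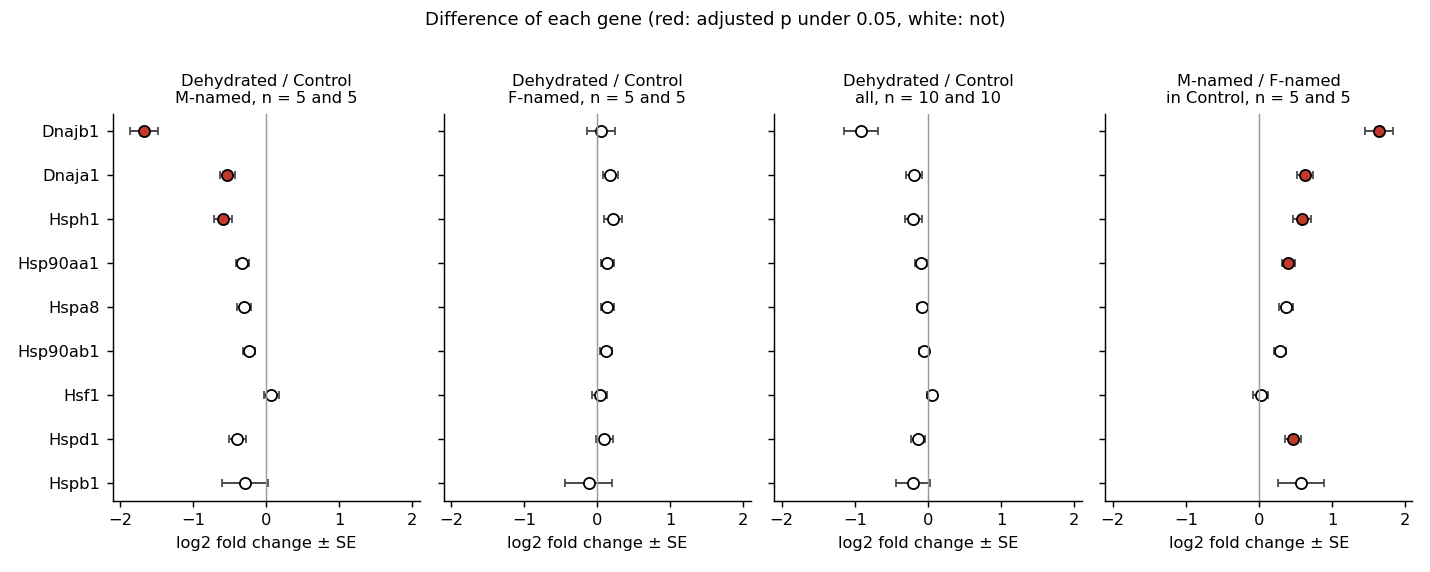
Log2 fold changes with their SE (horizontal axes) of the 9 placed genes for Dehydrated over Control in M-named, F-named and all libraries, and for M-named over F-named libraries within Control; red points have an adjusted p under 0.05. Dnajb1 lies at -1.67 in M-named libraries and at 0.05 in F-named ones, and Hsf1 lies near 0 in all 4 panels.

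Over all 29 libraries the levels of the 6 chaperone genes were more alike among themselves than to that of Hsf1. Spearman's rho of log2 CPM was 0.853 between Hspa8 and Hsp90ab1, 0.846 between Dnaja1 and Hsph1, and 0.808 between Hsp90aa1 and Hsp90ab1. Without the 5 M-named Control libraries, over 24 libraries, these were 0.799, 0.769 and 0.717. Dnajb1 had a rho of 0.638 with Hsph1 and 0.640 with Hspa8 over 29 libraries, and of 0.410 and 0.471 over 24. The rho of Hsf1 with the other 6 lay between -0.128 and 0.092 over 29 libraries, and between 0.003 and 0.328 over 24. Over 24 libraries Dnajb1 had a rho of 0.21 with Dnaja1, below the 0.328 of Hsf1 with Hsph1. The separation of the 6 genes from Hsf1 thus did not hold for every pair there. Dnajb1 itself had a rho of 0.003 with Hsf1 and of 0.21 to 0.471 with the other chaperone genes. These values are descriptions over libraries that share their treatment groups and scaling.

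The genes most like Dnajb1 over the 29 libraries, among 12168 named genes ranked by Spearman's rho, were Poglut2 (0.79), Tra2a (0.731), Ppic (0.716), P4ha1 (0.714) and Rrad (0.71). Over the 24 libraries without M-named Control they stood at 0.698, 0.576, 0.602, 0.603 and 0.533. None of these is a gene of the list. Those most like Hspa8 were Hsp90ab1 (0.853), Stip1 (0.817), which bridges Hsp70 and Hsp90, Ddx50 (0.791), Ahsa1 (0.763), which stimulates the Hsp90 ATPase, and Sf1 (0.757). Over the 24 libraries these stood at 0.799, 0.785, 0.768, 0.68 and 0.758.

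Other genes of the heat shock response and of the chaperone families were read from role lists. The list of inducible heat shock genes had 21 tested genes of 24 listed, among them 6 of the 7 genes (all but Hsf1), Hspb1 and Hspd1. It thus also holds the constitutive Hspa8 and Hsp90ab1, so its counts and medians are not of inducible genes alone. Between the letters in Control libraries, 20 of the 21 were higher in M-named libraries, 7 were called higher and the median log2 difference was 0.40. Over all genes tested, 0.439% were called higher and the median was -0.01. The called genes outside the 10 symbols were Bag3, a cofactor of Hsp70, at 1.27 (adjusted p = 0.0396), and Dnajb4, a J-domain protein, at 0.53 (adjusted p = 0.0323). Each of these 2 calls was lost without any 1 of 8 Control libraries. In M-named Dehydrated against M-named Control libraries all 21 were lower and 5 were called, with a median of -0.32. Over all genes tested, 0.211% were called lower and the median was 0.005. Fkbp4, an Hsp90 cochaperone, was lower by 0.45 (adjusted p = 0.0464 by edgeR) and Dnajb4 by 0.56 (adjusted p = 0.0368 by edgeR). The call of Fkbp4 held in 7 and that of Dnajb4 in 20 of 29 fits that left out 1 library. In F-named libraries 17 of the 21 were higher in Dehydrated than in Control, with a median of 0.12 and 0 called. Over all libraries 5 of the 21 were higher in Dehydrated, with a median of -0.10 and 0 called.

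Counts by family follow, with no test between families. Between the letters in Control libraries, 0.439% of all genes were called higher, and the median over all genes was -0.01. Among 18 J-domain genes, 3 were called higher between the letters in Control libraries (Dnajb1, Dnaja1 and Dnajb4), with a median of 0.17. Among 16 genes of Hsp90 proteins and their cochaperones, 2 were called higher, Hsp90aa1 and the p23 cochaperone gene Ptges3 at 0.41 (adjusted p = 0.0222), and the median was 0.30. The TRiC chaperonin and prefoldin, which fold actin and tubulin, had all 14 genes higher, 2 called (Cct2 at 0.33 and Cct6a at 0.41) and a median of 0.26. The calls of Ptges3 and Cct2 were lost without Control M01, M04, F02, F03 or F05, and that of Cct6a also without Control M05. In M-named Dehydrated against M-named Control libraries Ptges3 was lower by 0.39 (adjusted p = 0.0487 by edgeR). That call held in 5 of 29 fits that left out 1 library. Among 13 Hsp70 nucleotide exchange factors and cofactors 10 were higher, 2 were called (Hsph1 and Bag3) and the median was 0.16. Among 8 tested mitochondrial chaperones 5 were higher, 1 was called (Hspd1) and the median was 0.10. Hsp70 proteins had 3 of 7 higher, 0 called and a median of -0.10. Among 10 heat shock factors and their regulators, 8 were higher, 0 were called and the median was 0.19. Among 7 small heat shock genes 5 were higher, 0 were called and the median was 0.10. Every list had 0 called genes in Dehydrated against Control over all libraries, apart from the magnocellular markers with 3.

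**Figure D4:**
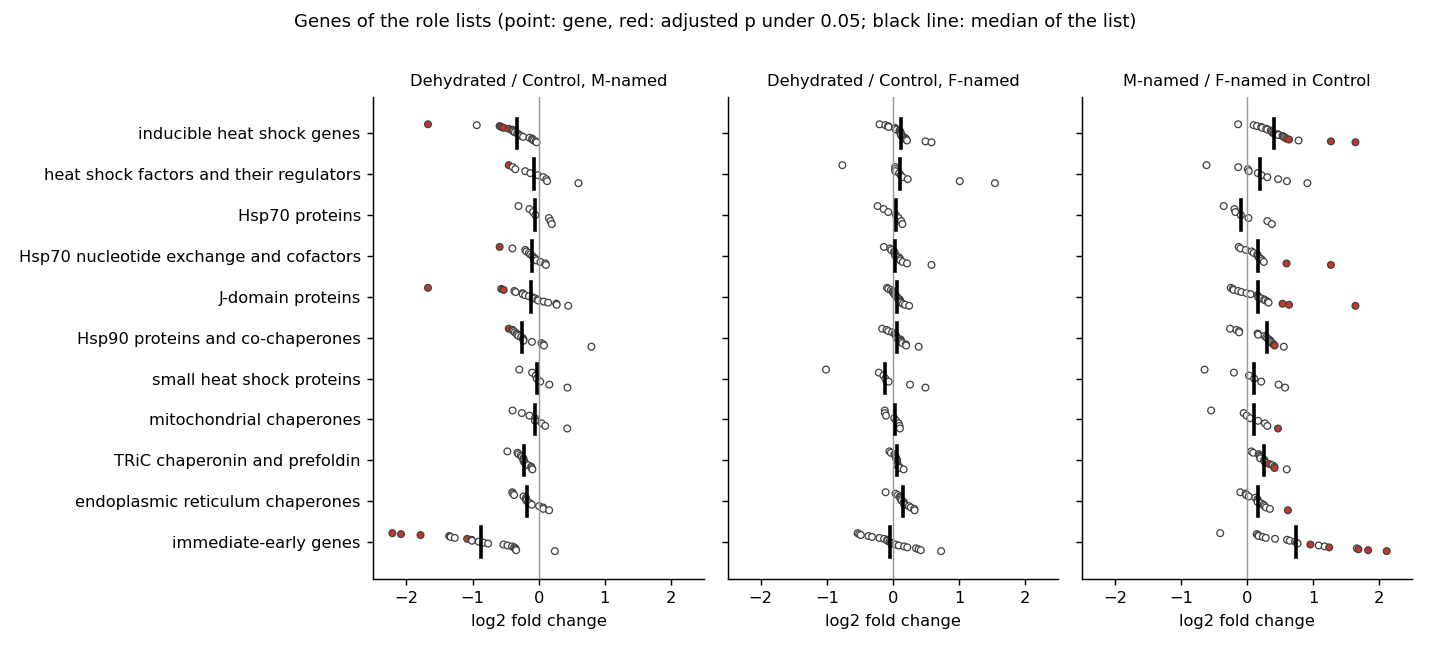
Log2 fold changes (horizontal axes) of the genes in each role list for Dehydrated over Control in M-named and in F-named libraries and for M-named over F-named libraries in Control; each point is a gene, red points have an adjusted p under 0.05 and the black line is the list's median. The list of inducible heat shock genes has a median of -0.32 in the first panel, 0.12 in the second and 0.40 in the third. It also holds the constitutive Hspa8 and Hsp90ab1.

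Immediate-early genes, which neurons transcribe within minutes of stimulation, moved with the letter in the same libraries. Of 20 tested, 19 were higher and 5 were called in M-named Control libraries against F-named ones, with a median of 0.74. Over all genes tested, 0.439% were called higher and the median was -0.01. Fos differed by 1.83 (adjusted p = 0.000152), Junb by 1.24 (adjusted p = 0.00504), Egr1 by 1.68 (adjusted p = 0.0189), Arc by 0.96 (adjusted p = 0.0189) and Fosb by 2.11 (adjusted p = 0.0076). Egr1 was not called without Control M01, nor Arc without Control F05. In M-named Dehydrated against M-named Control libraries, 19 of 20 were lower and the same 5 were called, with a median of -0.87. Over all genes tested, 0.211% were called lower there and the median was 0.005. The call of Egr1 was lost in that comparison without Control M01, Dehydrated M06 or Dehydrated M08. The mean log2 CPM of the list ranged from 3.47 to 3.99 in M-named Control libraries and from 2.75 to 3.15 in F-named ones, without overlap. Unlike in Dnajb1, Rehydrated M01, at 3.76, lay above 4 of the 5 M-named Control libraries. In Rehydrated libraries it ranged from 2.99 to 3.76 in M-named and from 2.63 to 2.92 in F-named libraries, without overlap, although Dnajb1 overlapped there. The part of these genes in the Dnajb1 difference was not tested.

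**Figure D5:**
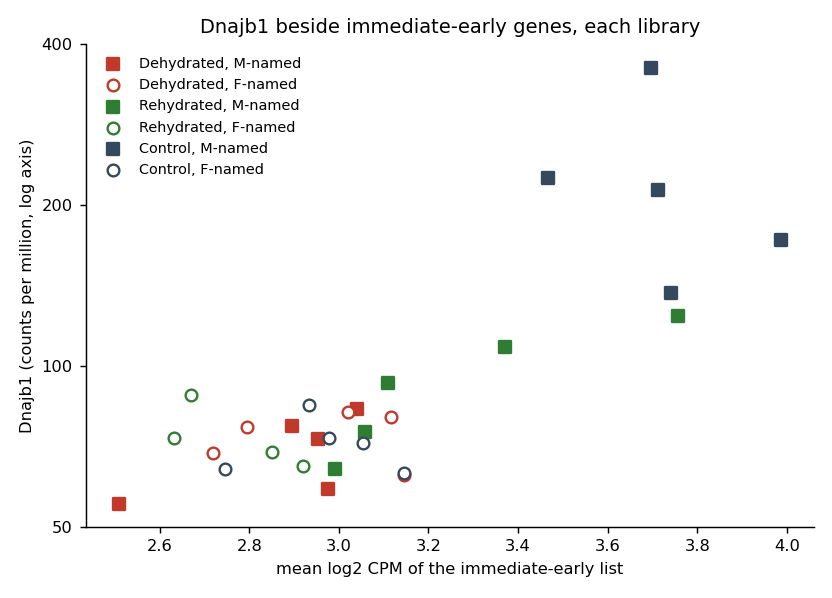
Dnajb1 in CPM (vertical axis, log scale) against the mean log2 CPM of 20 immediate-early genes (horizontal axis), 1 point per library; squares are M-named and open circles F-named. The 5 M-named Control libraries lie at 3.47 or above on the horizontal axis and at 136.8 CPM or above on the vertical one, while Rehydrated M01 lies at 3.76 on the horizontal axis and at 124.2 CPM on the vertical one.

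Markers of cell types were compared between the letters in Control libraries as well. No marker was called in any of the 7 lists of magnocellular, oligodendrocyte, astrocyte, microglia, endothelial, blood and ependymal genes. Magnocellular markers had 3 of 7 higher, with summed levels of 757.7 to 3696 CPM in M-named and 1047 to 3298 CPM in F-named libraries. Oligodendrocyte markers had 4 of 5 higher, with 2930 to 6141 CPM in M-named and 2437 to 6135 CPM in F-named libraries. Astrocyte markers had 2 of 7 higher, with 2105 to 3063 CPM in M-named and 2593 to 4094 CPM in F-named libraries. The summed levels thus overlapped between the letters. Microglia (137.1 to 375.5 against 155.8 to 193.9 CPM), endothelial (143.0 to 202.3 against 187.7 to 223.7 CPM), blood (144.0 to 806.7 against 114.4 to 330.8 CPM) and ependymal markers (12.2 to 42.8 against 17.9 to 33.8 CPM) overlapped likewise. Their part in the Dnajb1 difference was not tested.

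In M-named Dehydrated against M-named Control libraries, no marker of these 7 lists was called either. Astrocyte markers had 5 of 7 higher, and their mean log2 CPM ranged from 8.39 to 8.62 in M-named Dehydrated and from 7.78 to 8.35 in M-named Control libraries, without overlap, while their summed levels overlapped (2779 to 3347 against 2105 to 3063 CPM). All 7 magnocellular markers were higher, with summed levels of 3022 to 5267 CPM in M-named Dehydrated and 757.7 to 3696 CPM in M-named Control libraries. All 5 oligodendrocyte markers were lower, with 2223 to 3878 CPM in M-named Dehydrated and 2930 to 6141 CPM in M-named Control libraries. All 3 blood markers were lower, with 31.8 to 187.8 CPM in M-named Dehydrated and 144.0 to 806.7 CPM in M-named Control libraries. Microglia markers had 2 of 6, endothelial markers 3 of 7 and ependymal markers 2 of 3 higher, and their summed levels overlapped. The part of these markers in the lower Dnajb1, Dnaja1 and Hsph1 was not tested. Library headers number M-named libraries 6 to 10 in Dehydrated, 11 to 14 and 49 in Rehydrated and 1 to 5 in Control, and F-named libraries 20 to 24 in Dehydrated, 25 to 28 in Rehydrated and 15 to 19 in Control. Neither the letter nor the treatment can be told apart from that numbering.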

How the data were processed

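Per the file headers, the authors counted fragments per gene with featureCounts 1.6.2 in paired-end mode and without a strand option, and deposited whole counts with each gene's exonic length in bases. The submitters' processing notes also list FastQC and DESeq2. An aligner and the authors' model are not given in the sources used here. Tables deposited by the authors hold log2 fold changes with standard errors and adjusted p-values; they have no column for Control M01, and their 56 columns of values per library were not used.

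Names came from the authors' tables (9699 genes) and otherwise from RefSeq genes of mJacJac1.mat.Y.cur that overlap by at least 0.5 of both spans (5554 genes); where both named a gene, 96.6% of 8729 names were the same. The tests used edgeR 4.0.16 under R 4.3.3: filterByExpr left 17558 genes, taking out 11612 with 0.126% of counts, TMM scaling was used, and a robust quasi-likelihood model was fitted over all 29 libraries with group and sex label (25 residual degrees of freedom). Comparisons within or between name letters used 6 cells of group by letter (23 residual degrees of freedom). P-values were adjusted by Benjamini-Hochberg over all tested genes, with a threshold of 0.05. CPM used TMM-scaled totals, and an SE is the log2 difference over the root of its F statistic. P-values set a difference against the spread between libraries of the same group or cell, estimated jointly over all 29 libraries. No pair of replicates agreed within sampling noise: over 126 pairs the chi-square per degree of freedom was 8.52 or more. The steps were checked on simulated counts.

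The genes, role lists and tests were chosen with earlier results of these data known. Named genes are all listed symbols, those of each role list called in a treatment comparison or otherwise the 2 with the smallest p in Dehydrated against Control, immediate-early and hormone genes fixed by name, and the 5 genes most like Dnajb1 and Hspa8; list genes called only within or between letters (Bag3, Dnajb4, Fkbp4, Ptges3, Cct6a, Manf and Fosb) were chosen after their values were seen. The alternatives were DESeq2 1.42.0, its size factors, no filter, other covariates, cells by sex label, fits on the compared groups alone, an adjusted p under 0.1, a replicate block and leaving out each library; 2 were added after seeing the data (sex label beside the letter cells, and DESeq2 without Control M01). Python 3.11.15, pandas 2.3.3 and matplotlib 3.10.9 made tables and figures.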

Additional observations from a re-analysis of the deposited data

Results flagged for a closer look

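The Dehydrated against Control difference of Dnajb1 was itself different between M-named and F-named libraries, by -1.73 on the log2 scale (adjusted p = 0.0041, edgeR's quasi-likelihood test). All 5 M-named Dehydrated libraries lay below all 5 M-named Control libraries, and ranges overlapped in F-named ones. Between the letters Dnajb1 differed by 1.64 in Control and by -0.09 in Dehydrated libraries, so the -1.73 is not independent of the letter difference in Control. With groups by the sex label it did not pass. Neither letter nor treatment can be told apart from the header numbering. Rehydrated M04 stood apart as the highest library of its group in 3 genes: Hspa8 at 3828 CPM, Hsph1 at 651.0 CPM and Hsp90ab1 at 2538 CPM, and for the last 2 also among M-named Rehydrated libraries alone. Its header number, 49, lies outside the run of 11 to 14 of the other M-named Rehydrated libraries. Among the 4 F-named Rehydrated libraries, Hspb1 was highest at 15.6 CPM in F05 and Hspd1 lowest at 36.3 CPM in F03. In all, 7 of 81 groups of libraries examined had a library apart by Dixon's criterion. Chance alone gives about 1 in 20 for independent groups. These groups share libraries, and their genes vary together, so the count cannot be read against that rate.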

How the results depend on the processing

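Of 766 values recomputed under other settings, 674 kept their direction and their side of the threshold and 5 changed sign; of 3683 with 1 library left out, 3417 kept both and 23 changed sign. Over all libraries no gene of the 7 was called in a treatment comparison under any setting run, and Dnajb1 in Dehydrated against Control had adjusted p-values from 0.0715 (DESeq2) to 0.523 (replicate block) under other settings and from 0.0981 to 0.692 with 1 library left out. Groups by sex label in place of the letter hold other libraries, and called 0 of the 7 in male-labelled Dehydrated against Control, in the male-labelled minus female-labelled response and between the labels in Control. They gave Dnajb1 -1.4255 (adjusted p = 0.2), -0.9522 (adjusted p = 0.817) and 0.9655 (adjusted p = 0.356); set beside the letter values, signs were reversed for Dnajb1 in female-labelled Dehydrated (-0.4733) and Rehydrated against Control (-0.4261) and between the labels in Dehydrated (0.0134), and for Hsp90aa1 in female-labelled Dehydrated against Control (-0.0204). DESeq2 called 3 of the 7 in the difference of responses (Dnaja1, Dnajb1 and Hsph1), 4 in M-named Dehydrated against Control and 6 between the letters in Control. The sex label beside the letter cells left 2 called between the letters in Control (Dnaja1 and Dnajb1) and gave Hsf1 -0.0315; the cause was not tested. With 1 library left out, the 7 had 1 to 4 calls in M-named Dehydrated against Control, 1 to 2 in the difference of responses and 2 to 6 between the letters in Control. Over all genes the calls in these fits ranged from 21 to 136, from 5 to 16 and from 37 to 360, in the same order. The counts of 4 and 6 came without Control M03, the fit that also called 136 and 360 of all genes. Dnajb1 kept its call in 29 of 29 fits in each. Signs near 0 moved with single libraries: in Rehydrated against Control, Hspa8 from -0.0265 to 0.0748, Dnaja1 from -0.0986 to 0.0131, Hsph1 from -0.1225 to 0.0158, Hsp90ab1 from -0.0259 to 0.0531, Hspb1 from -0.1838 to 0.1637 and Hspd1 from -0.0603 to 0.0382; Hsf1 in Rehydrated against Dehydrated from -0.0426 to 0.0379 and between the letters in Control from -0.0753 to 0.0720; in F-named libraries, Hspb1 in Dehydrated against Control from -0.3535 to 0.0551 and Dnajb1 in Rehydrated against Control from -0.0462 to 0.1217. Over all genes, DESeq2 called 44 where edgeR called 22 in Dehydrated against Control (47 without Control M01, 11 with only the compared groups), 198 where edgeR called 46 in M-named libraries, 58 where edgeR called 9 in the difference of responses, and 451 where edgeR called 106 between the letters in Control. Replicate names do not pair the libraries: over 19 pairs of the same name the correlation of deviations was -0.115 to 0.11, with 2 over 0.1, and with the replicate block 0 of the 7 genes and 15 of all genes were called in Dehydrated against Control. Hspb1 had the lowest level of the placed genes.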

Other observations

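Endoplasmic reticulum chaperones, which fold secreted proteins, had 11 of 14 genes higher in M-named Control libraries than in F-named ones. The median log2 difference was 0.16, and 1 gene was called, beside 0.439% of all genes called higher. The called gene was Manf, a secreted protein of the endoplasmic reticulum stress response, at 0.62 (adjusted p = 0.00133, edgeR's quasi-likelihood test). Its response to dehydration also differed between the letters, -0.39 in M-named and 0.33 in F-named libraries, with a difference of -0.71 (adjusted p = 0.0314). Over all libraries it differed by -0.04 between Dehydrated and Control. Neither Hyou1 (0.21, adjusted p = 0.508) nor Sdf2l1 (-0.26, adjusted p = 0.735), the genes of that list with the smallest p, passed in Dehydrated against Control.

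The 2 genes within the RefSeq span of Hspe1 had no passing difference. The gene next to Hspd1 (ENSJJAG00000012025) had medians of 21.6 CPM (15.3 to 30.04) in Dehydrated, 24.7 CPM (19.6 to 30.4) in Rehydrated and 25.2 CPM (17.9 to 47.9) in Control libraries. The gene farther from it (ENSJJAG00000009865) had medians of 47.2 CPM (39.8 to 55.1) in Dehydrated, 50.04 CPM (37.1 to 54.8) in Rehydrated and 46.9 CPM (37.7 to 56.1) in Control libraries.

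Fkbp5, an Hsp90 cochaperone induced by glucocorticoids in mammals, had the largest positive difference of the Hsp90 list in Dehydrated against Control libraries, 0.59 (adjusted p = 0.587). It was higher in M-named libraries by 0.80 (adjusted p = 0.227) and in F-named ones by 0.39 (adjusted p = 1.0), none of them past the threshold.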
